A study of Mus musculus with 12 samples.

Results

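Mitochondrial ribosomal protein genes were examined in liver RNA-Seq of calorie-restricted (CR) mice and of control (Con) mice. The members are the protein-coding genes of the deposited table whose symbol starts with Mrpl or Mrps followed by a digit, and there were 78 of them among 24537 genes. The symbols divide into 49 Mrpl and 29 Mrps genes. The rule uses symbol and biotype, and no measured value enters it, although it was set with earlier results of these data known. Male C57Bl/6J mice entered the study at 6 weeks of age and lived 1 to a cage. Con mice ate the NIH41 diet ad libitum, and CR mice received 30% less food, as fortified NIH41 given once a day. All mice, Con and CR, took heavy water for labeling before the livers were collected. There were 4 groups of 3 mice, named here as the columns of the table name them, namely Con day 25 (Con7 to Con9), CR day 25 (CR7 to CR9), Con day 30 (Con10 to Con12) and CR day 30 (CR10 to CR12). The groups address whether hepatic gene expression changed with CR before and after a point, between both days, at which hepatic protein synthesis slows.

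The mitochondrial ribosome, or mitoribosome, makes only the proteins encoded by mitochondrial DNA, all of them core subunits of the respiratory chain and of ATP synthase. Its rRNA comes from mitochondrial DNA, whereas all of its proteins are encoded in the nucleus, made on cytosolic ribosomes and imported. It has a large subunit, which forms peptide bonds and holds the exit tunnel, and a small subunit, which decodes the mRNA. Liver is rich in mitochondria, which oxidize fatty acids through this chain when food is scarce. Many mitoribosomal proteins have a homolog in the bacterial ribosome, and the others are particular to mitochondria.

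Each library held 15749086 to 23344755 reads as recovered from the table, and 78.1% to 84.3% of them lay on exons. The values are FPKM, reads on the exons of a gene scaled to the length of its exons in kilobases and to the depth of the library. Hepatocyte markers dominated the libraries, with 6 of 6 tested and a summed FPKM of 39450 to 67847. The summed FPKM of the other marker lists was 22.1 to 56.5 for Kupffer cells (6 of 6 tested), 45.7 to 79.5 for stellate cells (5 of 6), 32.7 to 54.0 for endothelial cells (6 of 6), 7.57 to 17.8 for cholangiocytes (2 of 5) and 176 to 956 for red blood cells (4 of 5). For B and T cells it was 0.165 to 1.40 and for proliferating cells 0.644 to 1.39, with 0 genes of either list tested, and no marker was at 0 in every library. With CR at day 25, 2 hepatocyte, 1 stellate and 1 endothelial marker were higher, and 3 Kupffer and 1 red blood cell marker were lower. At day 30, 3 hepatocyte, 3 stellate, 3 endothelial and 1 Kupffer marker were higher, and 1 red blood cell marker was lower. The part of these cells in the results below was not tested. In bulk tissue, fewer cells of a type and less RNA per cell cannot be told apart.

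By role, 51 members code for large subunit proteins and 26 for small subunit proteins. Symbols and subunits do not match throughout, because Mrps18a and Mrps30 code for proteins of the large subunit. Of the large subunit members, 30 have a bacterial homolog and 21 are particular to mitochondria. Of the small subunit members, 16 were counted as having a bacterial homolog and 10 as particular to mitochondria. The related genes Mrps18a, Mrps18b and Mrps18c were split by this count. Mrps18c was put with the bacterial homologs, and Mrps18a and Mrps18b with the proteins particular to mitochondria, so the class of these genes is uncertain. The remaining gene, Mrps36, is named for the ribosome but its protein belongs to the oxoglutarate dehydrogenase complex of the citric acid cycle.

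The members lie on 17 chromosomes of mm10, with 11 on chromosome 11, 8 on chromosome 17 and 1 to 7 on each of the others. Their mRNAs are small. The median exon length used for FPKM was 1046 bases over the 76 tested members, compared with 2579 bases over all 10593 tested genes, and the number of exons ranged from 2 to 12 with a median of 5. A start that faces away from that of another protein-coding gene on the other strand, at most 1000 bases off in GENCODE M21, was found for 18 of 78 members (23.1%), compared with 1085 of 9874 tested genes with an entry (10.99%). Among these pairs are Mrps12 with Sars2, a mitochondrial seryl-tRNA synthetase, Mrps18b with Ppp1r10 and Mrpl30 with Mitd1.

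Promoter windows of RefSeq (GRCm38.p6, 250 bases before to 50 bases after the start) were matched for 69 members, and 9 had no entry. They were searched on both strands for short core motifs of 3 factors long linked to nuclear genes of mitochondrial function. These were CATGCGC for NRF1, CCGGAAG for GABPA and AAGATGGC for YY1. The GABPA letters were in 25 of 69 member windows (36.2%), compared with 19.5% of the windows of tested genes and 9.12% of all windows. The YY1 letters were in 12 of 69 (17.4%), compared with 5.23% and 2.88%. The NRF1 letters were in 8 of 69 (11.6%), compared with 7.61% and 4.04%. At least 1 of the motifs was in 37 member windows. Median GC content was 58.3% in member windows and 61.0% in those of tested genes.

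Stretches of 30 bases around these letters are shown for the genes whose mRNA changed with CR and had a match, and for Mrps18a, which held the YY1 letters. The capitals mark the motif, read on the strand of the gene from 5′ to 3′.
Mrpl22, GABPA, chr11:58171600-58171629, + strand, no annotated exon: cttttccggtcCCGGAAGccggcctcggac
Mrpl22, NRF1 in reverse, chr11:58171620-58171649, + strand, no annotated exon: ggcctcggactGCGCATGcgtatagtcagc
Mrpl39, NRF1, chr16:84735348-84735377, - strand, within an annotated exon of Mrpl39: ggagaggcgcgCATGCGCccccgcgtggct
Mrps21, GABPA in reverse, chr3:95871478-95871507, - strand, within an annotated exon of Mrps21: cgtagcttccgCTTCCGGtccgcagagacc
Mrps18b, NRF1, chr17:35916644-35916673, - strand, within an annotated exon of Ppp1r10: acggcccgacgCATGCGCactgggagcacc
Mrps18a, YY1, chr17:46111004-46111033, + strand, within an annotated exon of Mrps18a: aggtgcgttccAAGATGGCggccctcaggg
In Mrpl22 both motifs lay just before the start, with their first bases at -53 and -33. In Mrpl39 the NRF1 letters overlapped on both strands. The stretch shown for Mrps21 lies upstream of the transcript used for its FPKM (chr3:95862652-95870619, - strand). Its window is therefore that of another annotated start of Mrps21. The window of Mrps18b held the NRF1 letters at 2 positions and the GABPA letters as well. The windows of Mrps2, Mrpl48 and Mrpl19 held none of these letters, and Mrps28 had no window. These matches are descriptions of letters and not of binding.

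Levels per length differed widely between members. The median over the tested members of the mean FPKM of the 12 mice was 16.4, compared with 6.26 over all tested genes. The highest levels were those of Mrpl12 (87.1 FPKM), which codes for the stalk protein that recruits translation factors, Mrpl52 (63.5 FPKM), Mrpl14 (58.2 FPKM), Mrpl30 (55.6 FPKM) and Mrpl24 (50.03 FPKM). All of these are large subunit genes. The highest and lowest of the 12 mice were 109 and 67.5 FPKM for Mrpl12, 80.4 and 49.4 FPKM for Mrpl52, and 81.9 and 45.1 FPKM for Mrpl14, so the ranges of Mrpl52 and Mrpl14 overlapped.

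The lowest levels were those of Mrpl23 (0.1003 FPKM), Mrps36 (0.705 FPKM), Mrps33 (1.86 FPKM), Mrpl19 (2.70 FPKM) and Mrps25 (3.997 FPKM). Mrpl23 had 0 to 4 reads in a library and Mrps36 had 2 to 17, and both stayed under the limit of 1 FPKM in at least 3 libraries, so 76 of 78 members were tested. RefSeq lists a pseudogene for 6 members, and the 3 lowest members are among these 6. None of those pseudogenes has a row of its own, and whether their copies took reads from the parent genes was not tested. Mrpl27, Mrpl48 and Mrpl51 also have such a copy, at mean levels of 20.8, 8.71 and 16.3 FPKM, and the values of these 6 genes are uncertain for this reason. Mrps33 had 31 to 43 reads in a library.

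The mice of a group differed among themselves in a way that most members shared. The deviation of each member from its own mean over 12 mice was taken on the log2(FPKM + 1) scale, and its median over the 76 members was found for each mouse. At day 25 it was -0.12 in Con7, 0.10 in Con8 and -0.04 in Con9, and -0.09 in CR7, 0.18 in CR8 and -0.04 in CR9. At day 30 it was 0.02 in Con10, -0.05 in Con11 and -0.08 in Con12, and 0.11 in CR10, 0.15 in CR11 and -0.16 in CR12. The CR mice of day 30 thus did not move as 1 group, because 70 of 76 members were above their mean in CR11 and 74 of 76 were below it in CR12.

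**Figure D1:**
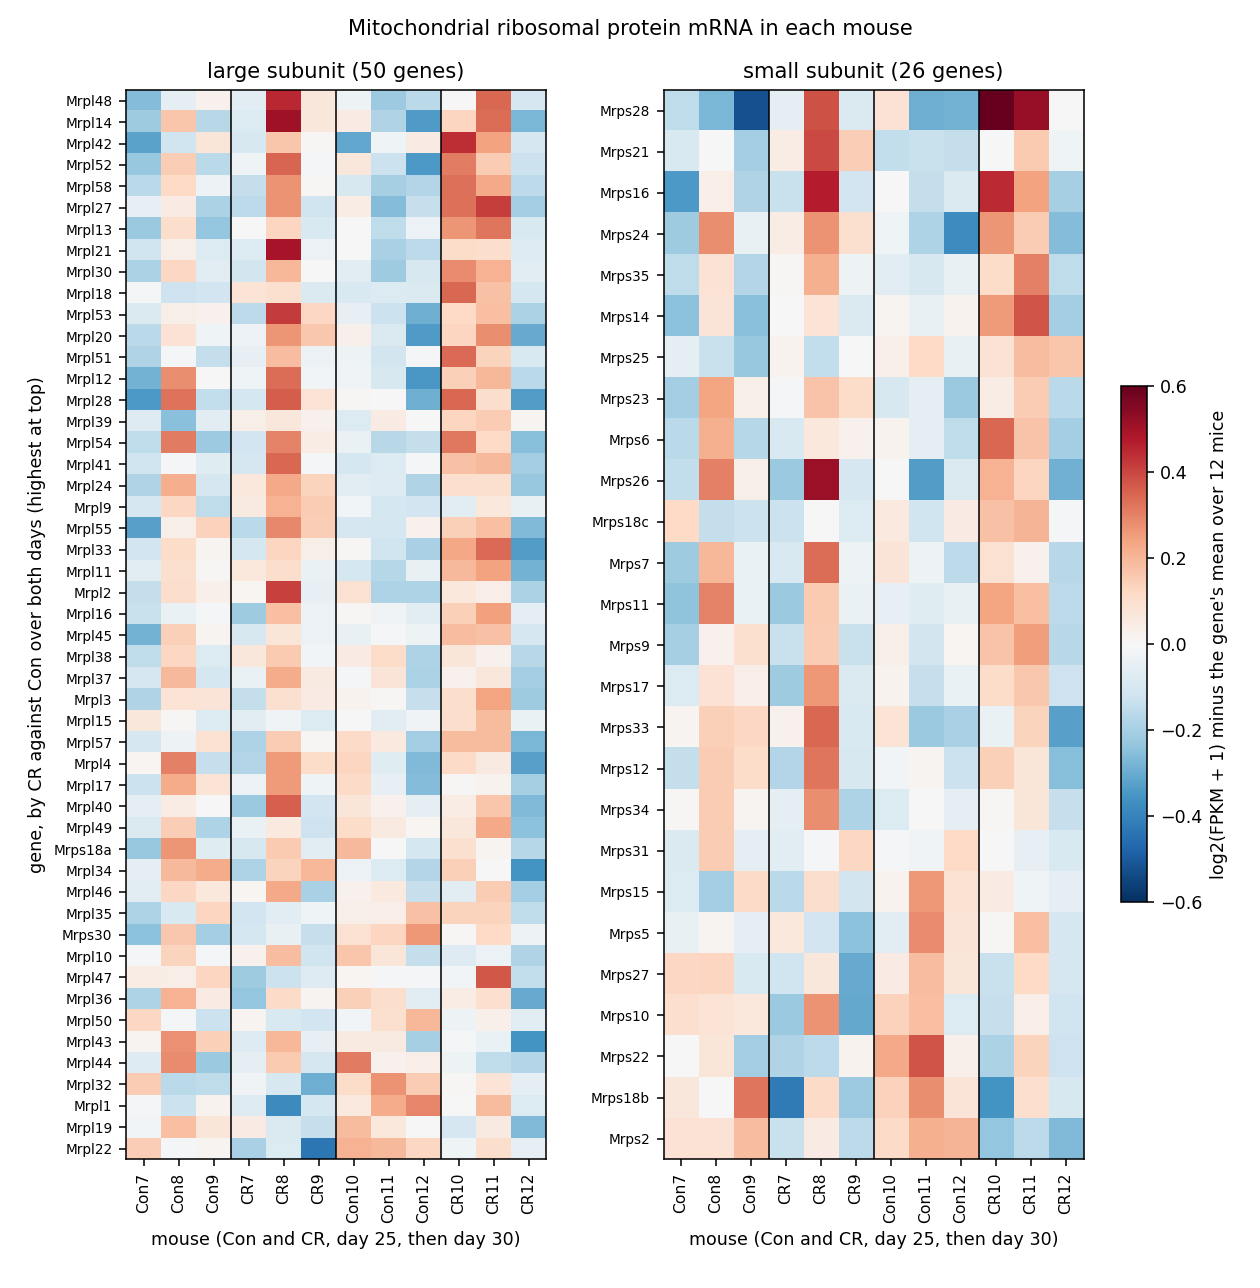
Heat map of log2(FPKM + 1) minus each gene's mean over the 12 mice, for the 50 large subunit and 26 small subunit members tested, with 1 row per gene and 1 column per mouse (Con day 25, CR day 25, Con day 30, CR day 30). Red is above and blue below the gene's mean, and values beyond 0.6 take the end colour. Most rows are red in Con8, CR8, CR10 and CR11 and blue in CR12, CR7 and Con7.

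Other short mRNAs shared this pattern. For all tested genes with under 1000 bases of exon the same median ran from -0.16 in CR12 to 0.20 in CR8, with 0.12 in Con8, 0.13 in CR10 and 0.12 in CR11. The median over all tested genes stayed between -0.06 and 0.08. The share of reads on exons was highest in CR8 (84.3%), Con8 (83.6%) and CR11 (82.3%) and lowest in Con7 (78.1%) and Con11 (78.2%). It was 80.5% in CR12, where the median of the members was lowest, and 80.6% in Con10, where that median was 0.02. Its part in the level of the members was not tested. Within a group, the spread of a member between mice was a median SD of 0.16 on the log2(FPKM + 1) scale, close to the 0.15 over all tested genes.

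**Figure D2:**
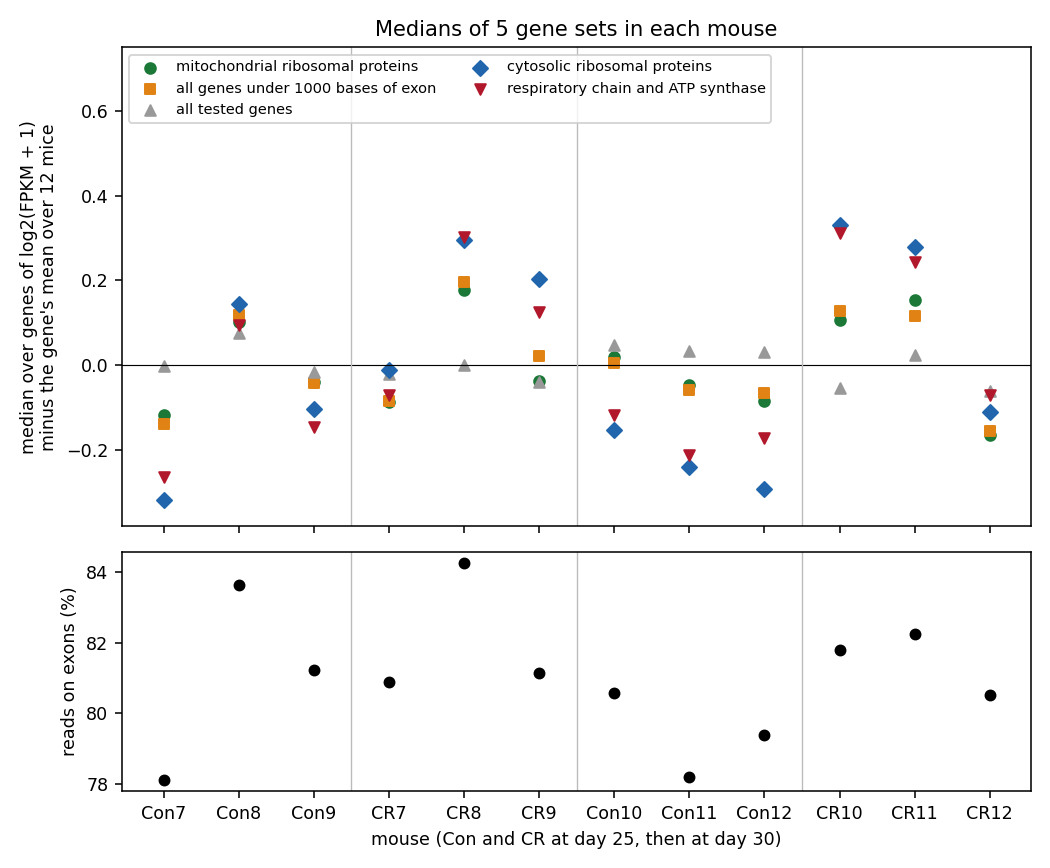
Median deviation in each of the 12 mice for 5 gene sets on the log2(FPKM + 1) scale (top) and percent of reads on exons (bottom). Mitochondrial ribosomal proteins (circles) lie within 0.06 of all genes under 1000 bases of exon (squares) in every mouse, whereas cytosolic ribosomal and respiratory chain medians are above 0 in CR8 to CR11 and in Con8 and below 0 in CR7, CR12 and the other Con mice.

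CR against Con at day 25 left almost all members without a detectable change. On the log2(FPKM + 1) scale the fold changes of the 76 members ran from -0.30 to 0.40 with a median of 0.02, and the median over all tested genes was -0.04. The limma test, with Benjamini-Hochberg adjustment over all tested genes and a threshold of 0.1, called 1 of 76 members (1.32%), compared with 14.9% of all tested genes. By direction, 0 members were higher (5.6% of all tested genes) and 1 was lower (9.34%). An unadjusted p under 0.05 was found for 3 of 76 members and for 2635 of all 10593 tested genes. With voom on the recovered reads 0 members were called. The called gene was Mrpl22, which codes for a protein that lines the exit tunnel.

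Mrpl22 lies at chr11:58171654-58179581 on the + strand. It was at 12.6, 11.2 and 11.4 FPKM in Con7, Con8 and Con9 and at 9.74, 10.6 and 8.11 FPKM in CR7, CR8 and CR9. All 3 CR mice were below all 3 Con mice. It fell by 0.29 on the log2 scale (SE 0.10, limma adjusted p = 0.0917). The call rested on single mice, since it was kept only without CR8 and was lost without any other mouse (adjusted p from 0.0532 to 0.311 over the 12 omissions), and it was also lost in a model of day 25 alone (adjusted p = 0.189). Same-numbered Con and CR mice of day 25 deviated together. With the number as a block, Mrps21 passed as well, with 1 member higher and 1 lower (Mrps21, log2 fold change 0.29, limma adjusted p = 0.0658).

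The CR mice were all below the Con mice for 3 tested members, Mrpl22, Mrps2 and Mrpl47 (18% of all tested genes), and all above them for 3, Mrps28, Mrps21 and Mrpl39 (10.2% of all tested genes). Mrpl47, a protein at the mouth of the exit tunnel, was at 10.01, 9.96 and 10.7 FPKM in Con and 8.20, 8.76 and 9.10 FPKM in CR mice, and this difference of -0.21 did not pass (SE 0.12, limma adjusted p = 0.282). The highest fold changes at day 25 were those of Mrps28 (0.40), Mrps21 (0.29) and Mrpl48 (0.25), and the lowest those of Mrps18b (-0.30), Mrpl22 (-0.29) and Mrpl47 (-0.21). The 95% interval of the fold change lay within -1 and 1 for all 76 tested members, so a 2-fold change in FPKM + 1 was outside it, and within a 1.5-fold change either way for 71.

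At day 30 the same picture held, with 1 member higher and 1 lower. The fold changes ran from -0.40 to 0.57 with a median of 0.09, compared with a median of -0.07 over all tested genes. Of 76 members, 2 passed the limma test (2.63%), compared with 24.7% of all tested genes. The member that was higher was Mrps28 (8.33% of all tested genes were higher) and the one that was lower was Mrps2 (16.4% were lower). Both code for small subunit proteins with a bacterial homolog.

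Mrps2 lies at chr2:28468066-28471177 on the + strand. It was at 16.8, 18.0 and 17.9 FPKM in Con10, Con11 and Con12 and at 12.9, 13.7 and 12.6 FPKM in CR10, CR11 and CR12. The groups did not overlap. It fell by 0.40 on the log2 scale (SE 0.09, limma adjusted p = 0.00903), and it passed in each of the 12 fits that left out a mouse, with adjusted p between 0.00712 and 0.0336. At day 25 the CR mice were also all lower, at 13.9, 15.97 and 13.7 FPKM compared with 16.4, 16.4 and 17.7 FPKM in Con mice, where the difference of -0.20 did not pass (limma adjusted p = 0.169).

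Mrps28 lies at chr3:8802146-8923857 on the - strand. It was at 18.8, 14.2 and 14.3 FPKM in Con10, Con11 and Con12 and at 29.1, 25.7 and 17.6 FPKM in CR10, CR11 and CR12. CR12 lay within the Con range and the other CR mice above it. It rose by 0.57 (SE 0.19, limma adjusted p = 0.0584). The call was lost without Con11, Con12, CR10 or CR11, and the adjusted p ranged from 0.0188 to 0.216 over the 12 omissions. At day 25 it was at 15.8, 14.4 and 11.9 FPKM in Con and at 16.9, 23.3 and 16.6 FPKM in CR mice, without overlap, and the difference of 0.40 did not pass (limma adjusted p = 0.212).

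The day 30 values depended on single CR mice, in both directions. Without CR12, the mouse in which nearly all members were low, 10 members were higher and 1 lower (14.5% of members, compared with 20.8% of all tested genes in the same fit), and the median of the members became 0.19. Without CR11 the median was 0.03 and without CR10 it was 0.05, with 2 and 1 members called (2.63% and 1.32%, compared with 21.6% and 14.1% of all tested genes). Among the 10 were Mrpl27 (log2 fold change 0.49, limma adjusted p = 0.0478), which codes for a protein next to the peptidyl transferase center, and Mrpl30. The 3 CR mice of day 30 were all above the Con mice for 2 tested members, Mrpl30 and Mrps21 (12.1% of all tested genes), and all below them for 4, Mrpl22, Mrpl32, Mrpl44 and Mrps2 (24.3% of all tested genes), of which Mrpl32 and Mrpl44 were named after their values were seen. Mrpl30 was at 52.6, 47.5 and 51.6 FPKM in Con and 67.5, 64.0 and 52.8 FPKM in CR mice, a difference of 0.27 that did not pass (SE 0.12, limma adjusted p = 0.158). Mrpl27 (0.30), Mrpl58 (0.29) and Mrps28 were highest and Mrps2, Mrps18b (-0.28) and Mrps22 (-0.27) lowest. The 95% interval lay within a 2-fold change either way for all 76 tested members and within a 1.5-fold change for 67.

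**Figure D3:**
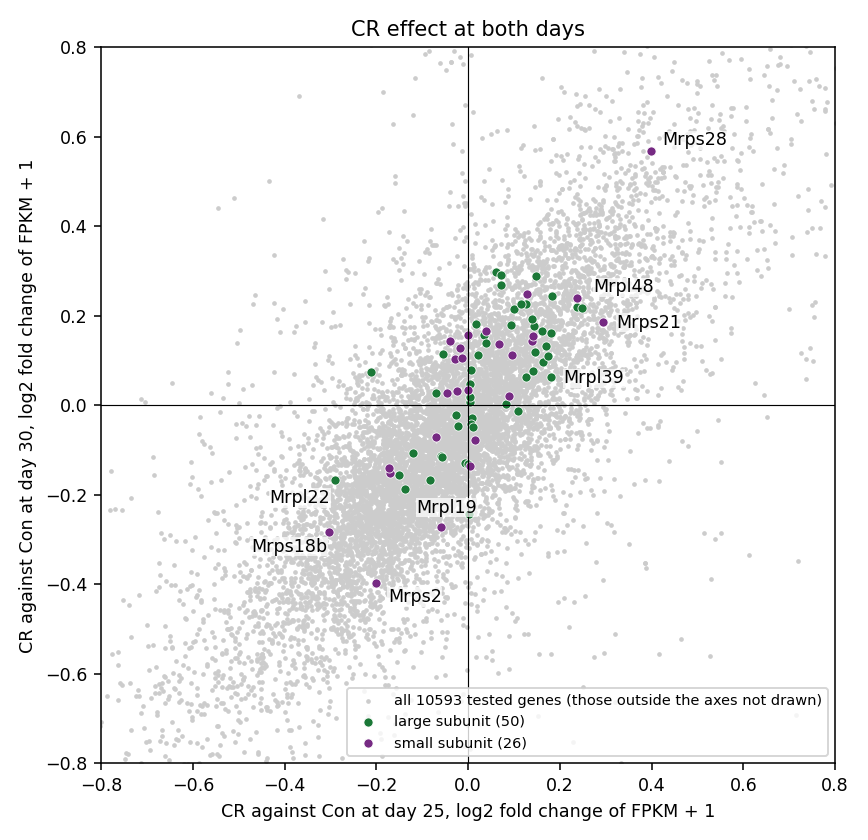
Fold change of CR against Con at day 25 (horizontal axis) and at day 30 (vertical axis) on the log2(FPKM + 1) scale, with all tested genes in gray and the 50 large and 26 small subunit members in color. The members lie near 0 on both axes, and the 8 that passed over both days are labeled, with Mrps28 at 0.40 and 0.57 and Mrps2 at -0.20 and -0.40.

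The CR effect was not found to differ between days for any member. The difference of the CR effect (day 30 minus day 25) ran from -0.25 to 0.28 among the members. The limma interaction test called 0 members, compared with 1 gene among all tested genes (0.00944%). Its unadjusted p was under 0.05 for 0 members and for 366 of all 10593 tested genes. With voom on the recovered reads 0 members were called as well. The largest difference was that of Mrpl47 (0.28, SE 0.16, unadjusted p = 0.106, limma adjusted p = 0.9995), which was at 9.73, 9.62 and 9.56 FPKM in Con and 9.54, 12.8 and 8.64 FPKM in CR mice at day 30.

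Over both days, with day as a covariate and 6 CR against 6 Con mice, 8 of 76 members passed (10.5%), compared with 40.6% of all tested genes. This comparison uses the same mice as those at each day and is not independent of them. Higher with CR were 4 members (14.5% of all tested genes were higher), namely Mrps28 (0.48, SE 0.13, limma adjusted p = 0.0138), Mrps21 (0.24, SE 0.07, adjusted p = 0.0236), Mrpl48 (0.23, SE 0.10, adjusted p = 0.0914) and Mrpl39 (0.14, SE 0.06, adjusted p = 0.0760). Lower were 4 members (26.1% of all tested genes were lower), namely Mrps2 (-0.30, SE 0.06, limma adjusted p = 0.00356), Mrps18b (-0.29, SE 0.10, adjusted p = 0.0430), Mrpl22 (-0.23, SE 0.07, adjusted p = 0.0241) and Mrpl19 (-0.16, SE 0.07, adjusted p = 0.0927). The median over the members was 0.05, and that over all tested genes was -0.05.

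The split between higher and lower, and the share called, depended on how libraries were scaled. With median-ratio scaling 24 members were higher and 2 lower over both days (34.2%, compared with 39.9% of all tested genes). With quantile normalization 12 were higher and 3 lower (19.7%, compared with 38.1%). Among all 10593 tested genes the calls over both days went from 1536 higher of 4304 to 2229 of 4224 and 2040 of 4034. With median-ratio scaling the members went to 2 higher and 0 lower at day 25 (2.63%, compared with 16.3% of all tested genes). At day 30 they went to 6 higher and 1 lower (9.21%, compared with 24.1%). The calls among all tested genes went from 593 higher of 1582 to 929 of 1728 at day 25. At day 30 these calls went from 882 higher of 2619 to 1319 of 2555. The direction of each of the 8 genes was the same under either scaling. Without CR12, 17 members were higher and 3 lower over both days (26.3% of members, compared with 38.1% of all tested genes), with a median of 0.10, and without CR10 2 were higher and 3 lower (6.58%, compared with 34.9%), with a median of 0.03.

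Of the 8 genes, Mrps28, Mrps21, Mrps2, Mrps18b and Mrpl22 passed over both days whichever mouse was left out, whereas Mrpl48, Mrpl39 and Mrpl19 passed in 4 of 12 such fits each. With a block for the replicate number at day 25, Mrpl19 no longer passed (limma adjusted p = 0.108), and with voom Mrpl48 did not (adjusted p = 0.125). Mrps18b and Mrpl19 did not pass with median-ratio scaling (adjusted p = 0.107 and 0.200), and Mrpl19 did not with quantile normalization (adjusted p = 0.377). With the block at day 25, 7 members were higher and 5 lower (15.8%, compared with 43.5% of all tested genes).

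Mrps21 (chr3:95862652-95870619, - strand) codes for a small subunit protein with a bacterial homolog. It was at 26.7, 28.5 and 24.6 FPKM in Con and 29.4, 37.8 and 31.6 FPKM in CR mice at day 25, and at 25.6, 25.8 and 25.6 FPKM in Con and 28.4, 31.9 and 28.0 FPKM in CR mice at day 30. All CR mice were above the Con mice of their day. Mrpl22 showed the opposite order at day 30 too, at 13.2, 13.1 and 12.4 FPKM in Con and 11.1, 12.2 and 10.9 FPKM in CR mice.

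Mrps18b (chr17:35910385-35916369, - strand) codes for 1 of 3 related mitoribosomal proteins, with Mrps18a in the large and Mrps18c in the small subunit. It was at 11.2, 10.6 and 13.5 FPKM in Con and 7.68, 11.6 and 9.002 FPKM in CR mice at day 25, and at 11.8, 13.1 and 11.3 FPKM in Con and 8.09, 11.5 and 9.89 FPKM in CR mice at day 30. A CR mouse lay within the Con range at either day. Mrps18a and Mrps18c had fold changes over both days of -0.02 and 0.06 with limma adjusted p of 0.898 and 0.587, so of the 3 only Mrps18b passed, and the difference between them was not tested.

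Mrpl48, a large subunit protein particular to mitochondria, was at 7.03, 8.25 and 8.79 FPKM in Con and 8.19, 12.2 and 9.08 FPKM in CR mice at day 25, and at 8.43, 7.26 and 7.61 FPKM in Con and 8.63, 11.2 and 7.96 FPKM in CR mice at day 30. The groups overlapped at both days. Mrpl39, of the same class, was at 15.0, 13.2 and 15.1 FPKM in Con and 16.3, 16.7 and 16.2 FPKM in CR mice at day 25, without overlap, and at 14.9, 16.5 and 15.9 FPKM in Con and 17.5, 17.8 and 16.1 FPKM in CR mice at day 30, with CR12 inside the Con range. Mrpl19, a large subunit protein with a bacterial homolog, was low throughout, between 2.07 FPKM in CR12 and 3.21 FPKM in Con10, and its groups overlapped at both days.

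**Figure D4:**
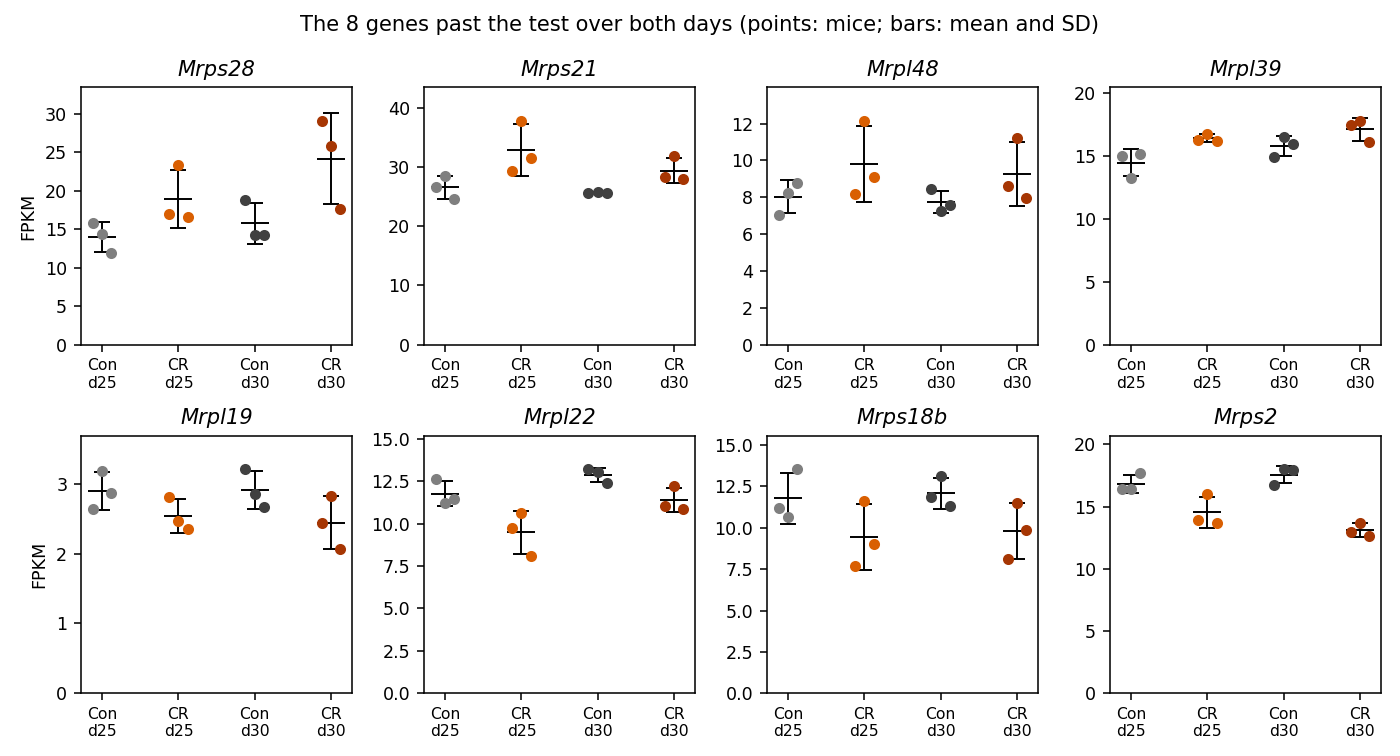
FPKM of the 8 members past the limma test over both days in each mouse, with the mean and SD of the 3 mice of each group. The upper row holds the 4 genes that were higher with CR and the lower row the 4 that were lower, and the CR and Con points of a day are apart at both days only for Mrps21, Mrpl22 and Mrps2.

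Mrpl12, Mrpl58, Mrpl45, Mrps12 and Mrps5, chosen for their known roles, did not pass at either day or over both days. Under other settings Mrpl58 passed at day 30 and over both days with median-ratio scaling and without CR12, at day 30 with quantile normalization and over both days without CR7, and Mrpl12 and Mrpl58 passed over both days with the replicate block of both days. Mrpl12 had a mean of 87.2 ± 17.2 FPKM (SD, n = 3) in Con and 93.0 ± 13.9 FPKM in CR mice at day 25, and its fold change over both days was 0.16 (limma adjusted p = 0.298). Mrpl58, which codes for a peptidyl-tRNA hydrolase that frees stalled mitoribosomes, differed by 0.18 (adjusted p = 0.183). Mrpl45, near the tunnel exit at the inner membrane, differed by 0.07 (adjusted p = 0.547). At the decoding center, Mrps12 differed by 0.00 (adjusted p = 0.984) and Mrps5 by -0.07 (adjusted p = 0.512).

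Calls over both days are given by subunit and class of origin, beside 40.6% of all tested genes (14.5% higher and 26.1% lower). Of 50 large subunit members, 2 were higher and 2 lower (8%), with a median of 0.08. Of 26 small subunit members, 2 were higher and 2 lower (15.4%), with a median of 0.05. Large subunit proteins with a bacterial homolog had 0 higher and 2 lower of 29 (6.90%), and those particular to mitochondria 2 higher and 0 lower of 21 (9.52%). Small subunit proteins with a bacterial homolog had 2 higher and 1 lower of 16 (18.8%), and those particular to mitochondria 0 higher and 1 lower of 10 (10%). The 1 gene called among these 10 was Mrps18b, whose class is uncertain. Differences between these classes were not tested. Members under 1000 bases of exon had a median of 0.14 (33 genes), compared with 0.06 over all 1156 tested genes of that length, and members of 2000 bases or more had a median of 0.03 (13 genes), compared with -0.08 over all 6765. The member medians were above those of all genes of like length in both classes.

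Genes that serve the mitoribosome are described by list. Of the 5 mitoribosomal proteins under other symbols, 3 were higher over both days and 0 lower. They were Chchd1 (0.29, limma adjusted p = 0.0179) and Dap3 (0.26, adjusted p = 0.0357) of the small subunit and Aurkaip1 (0.25, adjusted p = 0.0801), whereas Ptcd3 (-0.12, adjusted p = 0.255) and Gadd45gip1 (0.16, adjusted p = 0.118) did not pass. Of the list, 60% was called, compared with 40.6% of all tested genes, and a list of 5 genes gives a coarse share. Dap3 passed at day 25 (0.35, adjusted p = 0.0998), though in 3 of 12 fits that left out a mouse (adjusted p up to 0.292). Chchd1 passed at day 30 (0.38, adjusted p = 0.0476), but not without Con12, CR10 or CR11 (adjusted p up to 0.176). Aurkaip1 passed over both days in 4 of 12 such fits (adjusted p up to 0.165).

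Of 26 tested genes for mitoribosome assembly and rRNA modification, 4 were higher and 3 lower over both days (26.9%, compared with 40.6% of all tested genes), with a median of -0.06. Noa1, a GTPase needed to build the small subunit, was at 3.31, 4.15 and 3.26 FPKM in Con and 5.70, 5.15 and 5.12 FPKM in CR mice at day 25 and rose by 0.47 (SE 0.10, limma adjusted p = 0.0127), whereas its difference of 0.10 at day 30 did not pass (adjusted p = 0.498). Its CR effect was not shown to differ between days after adjustment (difference of -0.37, SE 0.14, limma adjusted p = 0.9995). This difference was the lowest of the list. The list held 1 gene with an unadjusted limma interaction p under 0.05, compared with 366 of all 10593 tested genes. At day 30, Trub2, a pseudouridine synthase, fell by 0.47 (adjusted p = 0.0179), and Mrm1, an rRNA methyltransferase, and Mpv17l2, an assembly factor, rose by 0.36 (adjusted p = 0.0755) and 0.35 (adjusted p = 0.0829). Noa1 and Trub2 passed in all 12 fits that left out a mouse. Mrm1 did not without Con10, Con11 or CR10 (fold change down to 0.24, adjusted p up to 0.277), and Mpv17l2 passed in 6 of 12 (adjusted p up to 0.226).

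Of 14 mitochondrial translation factors, 0 were higher and 5 lower over both days, with a median of -0.01. This share of 35.7% is near the 40.6% of all tested genes (26.1% lower). Mtif2, the initiation factor that places the first tRNA, was at 13.4, 11.4 and 11.7 FPKM in Con and 9.41, 9.86 and 8.72 FPKM in CR mice at day 25, and at 12.7, 13.9 and 14.4 FPKM in Con and 10.05, 11.5 and 9.89 FPKM in CR mice at day 30. The CR mice were below the Con mice at both days, and Mtif2 fell by 0.35 at each (limma adjusted p = 0.0387 and 0.0252). Gfm2, which recycles mitoribosomes after termination, fell by 0.25 at day 25 and 0.32 at day 30 (adjusted p = 0.0772 and 0.0211). Mtfmt, which formylates the initiator tRNA, fell at day 25 (-0.31, adjusted p = 0.0457), and the release factor gene Mtrf1 (-0.34, adjusted p = 0.0179) and Taco1, an activator of the translation of a cytochrome oxidase subunit (-0.58, adjusted p = 0.0266), fell at day 30. Mtif2, Gfm2 and Mtrf1 passed at day 30 whichever mouse was left out. At day 25 Mtif2 did not pass without Con7 or CR9 (adjusted p up to 0.135), Gfm2 without Con7, Con9, CR7 or CR9 (up to 0.2503) and Mtfmt without Con7 or CR7 (up to 0.149), and at day 30 Taco1 did not without CR10 (adjusted p = 0.113).

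Of 18 tested genes for mitochondrial DNA, transcription and mRNA handling, 1 was higher and 4 were lower over both days (27.8%, compared with 40.6% of all tested genes), with a median of -0.03. Mterf2 was lower at both days (-0.46 and -0.42, limma adjusted p = 0.0818 and 0.0816), and Elac2, which trims tRNA 3′ ends, at day 30 (-0.32, adjusted p = 0.0268). Mterf2 did not pass at day 25 when any mouse of that day was left out (adjusted p up to 0.191), and at day 30 not without CR11, CR12 or Con12, where without Con12 its fold change was -0.22 (adjusted p = 0.274). Named after their values were seen, Ptcd1 was higher over both days (0.16, adjusted p = 0.0822) and Ssbp1 and Pnpt1 lower (-0.23 and -0.26, adjusted p = 0.0674 and 0.0548), and they passed in 3, 4 and 6 of 12 fits that left out a mouse. No gene of the mitochondrial genome had a row in the table, so the rRNA of the mitoribosome was not analysed here.

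Of 10 transcriptional regulators of mitochondrial genes, 2 were higher and 1 lower at day 25 (30%, compared with 14.9% of all tested genes). At day 30, 2 were higher and 2 lower (40%, compared with 24.7%), and these counts were the same over both days. A list of 10 genes gives coarse shares. The 40% called over both days is close to the 40.6% of all tested genes. Ppargc1a, the coactivator known for driving mitochondrial biogenesis, was at 1.79, 2.13 and 3.03 FPKM in Con and 8.22, 3.90 and 6.63 FPKM in CR mice at day 30, without overlap. It rose by 1.10 at day 30 (SE 0.24, limma adjusted p = 0.00998) and by 0.74 at day 25 (adjusted p = 0.0772). Esrra, a nuclear receptor that works with it, rose by 0.41 and 0.46 at day 25 and day 30 (adjusted p = 0.0467 and 0.0191). Hcfc1, a cofactor of transcription, fell by 0.46 and 0.38 (adjusted p = 0.00955 and 0.0142), and Gabpb1, the partner of the GABPA protein, by 0.55 at day 30 (adjusted p = 0.0122). At day 25 Ppargc1a passed in 7 of 12 fits that left out a mouse (adjusted p up to 0.218), and Esrra did not pass without Con7, CR8 or CR9 (up to 0.156). Nrf1, Gabpa and Yy1 did not pass over both days (-0.09, -0.15 and -0.02, adjusted p of 0.401, 0.233 and 0.921). Members whose windows held the GABPA letters had a median fold change over both days of 0.06 (25 genes), and those without had 0.05 (42 genes). For the YY1 letters the medians were -0.01 (12 genes) and 0.09 (55 genes) and for the NRF1 letters -0.03 (8 genes) and 0.06 (59 genes), with no test.

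The nuclear genes of the respiratory chain and of the cytosolic ribosome were compared with the members. Both sets were taken by gene symbol, and whether each gene codes for a subunit was not checked. The first set includes the complexes that take up the products of the mitoribosome and complex II, which is encoded in the nucleus alone. Of its 78 tested genes, named for the respiratory chain and ATP synthase, 53 were higher and 2 lower over both days, with a median of 0.29. Of 66 tested cytosolic ribosomal proteins, 47 were higher and 0 lower, with a median of 0.33. These shares of called genes, 70.5% and 71.2%, stand beside 10.5% of the mitochondrial ribosomal proteins and 40.6% of all tested genes. At day 30 the counts were 32 higher and 0 lower of 78 (41.0%), and 26 higher and 0 lower of 66 (39.4%), compared with 24.7% of all tested genes. At day 25 they were 2 higher and 1 lower (3.85%), and 2 higher and 0 lower (3.03%), compared with 14.9% of all tested genes. Differences between the sets were not tested. Their genes are also short, with median exon lengths of 681 and 713 bases. Of all tested genes under 1000 bases of exon, 32.4% were called over both days.

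Among them, Atp5g1 (0.80, limma adjusted p = 0.0152), Uqcrb (0.49, adjusted p = 0.00844), Sdhb (0.41, adjusted p = 0.0116), Cox7c (0.41, adjusted p = 0.00841), Ndufa12 (0.40, adjusted p = 0.0152) and Cox5a (0.39, adjusted p = 0.0132) were higher over both days, as were Rpl31 (0.63, adjusted p = 0.00393), Rpl39 (0.55, adjusted p = 0.0168), Rps21 (0.45, adjusted p = 0.0239), Rps2 (0.45, adjusted p = 0.0222) and Rps18 (0.44, adjusted p = 0.0151). The lower genes, named after their values were seen, were Atp5s (-0.31, adjusted p = 0.0103) and Cox6b2 (-0.38, adjusted p = 0.0972). The genes called at day 25, named in the same way, were Ndufc2 (0.37, adjusted p = 0.0803), Uqcrb (0.52, adjusted p = 0.0896) and Atp5s (-0.45, adjusted p = 0.0167), and Rpl37rt (0.51, adjusted p = 0.0536) and Rps25 (0.38, adjusted p = 0.0868). Of these 5, only Atp5s passed at day 25 whichever mouse was left out. Cox6b2 passed over both days in 3 of 12 such fits (adjusted p up to 0.196). Without CR12 the sets had 46 higher of 78 and 46 higher of 66 at day 30, compared with 859 higher of all 10593 tested genes. Without CR10 they had 6 and 2 (517 of all tested genes), and without CR11 6 and 5 (644). Without Con10 they had 10 and 13 (655), without Con11 9 and 10 (605) and without Con12 13 and 7 (637). With median-ratio scaling they had 66 and 53 higher over both days (2229 of all tested genes), and with quantile normalization 48 and 48 (2040).

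**Figure D5:**
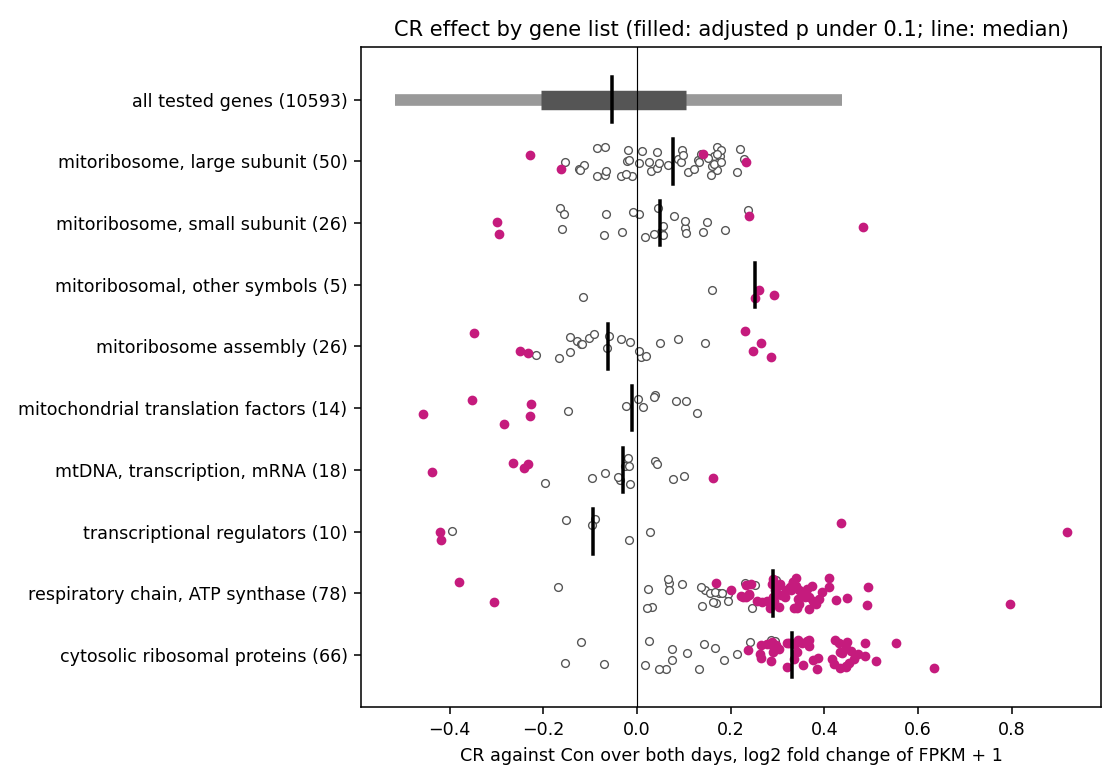
Fold change of CR against Con over both days on the log2(FPKM + 1) scale for each gene of 9 lists (points, filled where the limma adjusted p is under 0.1) and for all 10593 tested genes (bars from the 5th to the 95th and from the 25th to the 75th percentile), with the median of each set as a black line. Large and small subunit members center on 0.08 and 0.05, and the respiratory chain and cytosolic ribosomal sets on 0.29 and 0.33.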

How the data were processed

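Liver RNA of 12 mice was sequenced as 100-base paired-end reads. According to the submitters' processing notes and the file header, the authors called bases with CASAVA 1.8.2, checked reads with FastQC, aligned them to mm10 with BWA and counted reads over exons with HOMER, and their own comparison used DESeq2. BWA does not splice reads, so reads across exon junctions may be lost, more so where exons are short, and pseudogenes without introns can draw reads. The authors deposited FPKM per gene, and these are the values used here. The labels do not tell the Con mice of day 30 apart, so their columns were mapped to the group and their numbers are those of the column names. There were 0 sample columns left unused.

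Genes with at least 1 FPKM in at least 3 libraries were tested on log2(FPKM + 1), which understates changes of low genes. One limma model (limma 3.58.1, R 4.3.3, trended and with all 4 groups) gave CR against Con at each day and the difference between days. A separate trended limma model of all mice, with CR and day as terms, gave CR against Con over both days. P-values were adjusted by Benjamini-Hochberg over all tested genes, with a threshold of 0.1, and all tests are two-sided. With 3 against 3 mice an exact permutation test cannot give a p below 0.1. Whole reads were recovered from the FPKM steps for 100% of 1500 low values per library (tolerance 0.1 reads) and gave the depths and a voom fit. The fit was tested on simulated data. Figures used matplotlib 3.10.9, and all other tables came from pandas 2.3.3 and numpy 2.4.6 under Python 3.11.15.

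The members and lists were chosen with earlier results of these data known. Named were all called members, the 3 highest and 3 lowest fold changes at each day, the 5 highest and 5 lowest levels, the Mrps18 genes, 5 genes of known special role and, per other list, up to 6 genes called at either day. A gene and a sequence that these rules would name are not reported here. Rps19bp1 was left out of the cytosolic ribosomal list. Same-numbered Con and CR mice correlated in their deviations from the group means at day 25 (r = 0.368, 0.306 and 0.106 across genes), so the numbers were taken to pair them there. The labels state no pairing, and this choice rests on the same data as the tests. Alternatives were the pseudocount, the filter, the scaling, the trend, single-day models, the replicate block, voom, stricter thresholds and leaving out each mouse. The block at day 25 only and the comparison with short transcripts were added after seeing the data. Protein sequences were not analysed here.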

Additional observations from a re-analysis of the deposited data

How the results depend on the processing

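At day 25, where 1 member passed, 0 did so without the filter, with day 25 alone or with voom. Of all genes in these fits, 7.55%, 11.5% and 15.0% passed. At an adjusted p under 0.05 or with a required log2 change of 1, 0 members passed. With median-ratio scaling, quantile normalization or the replicate block 2 members passed (2.63%, compared with 16.3%, 15.0% and 16.5% of all tested genes). At day 30, where 2 passed, the count was 7 with median-ratio scaling (9.21%, compared with 24.1% of all tested genes). It was 4 with quantile normalization (5.26%, compared with 23.3%), 1 at an adjusted p under 0.05 and 0 with a required log2 change of 1. Over both days, where 8 passed, the counts were 26, 15, 5 and 0 under the same changes, and 25 with the replicate block. The counts of 26, 15 and 25 are 34.2%, 19.7% and 32.9% of members, compared with 39.9%, 38.1% and 46.3% of all tested genes. For the stricter adjusted p and the required log2 change, the shares of all tested genes are not given here. The member counts under those thresholds therefore stand without a background. Without the filter Mrps28 no longer passed at day 30 (limma adjusted p = 0.111), whereas Mrpl23, with 0 to 4 reads in a library, did (adjusted p = 0.0155). The cause of these moves was not tested. When each mouse was left out in turn, the count ranged from 0 to 4 at day 25, from 1 to 11 at day 30 and from 5 to 20 over both days, and the median of the members from -0.039 to 0.11 at day 25, from 0.03 to 0.19 at day 30 and from 0.02 to 0.10 over both days. The highest count at day 25 came without CR8 (5.26%, compared with 13.0% of all tested genes in the same fit). At day 30 and over both days it came without CR12 (14.5% and 26.3%, compared with 20.8% and 38.1%).

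At day 30 the same-numbered mice had r = 0.181, 0.0456 and 0.116, and Con11 correlated better with CR12 (0.1175) than with CR11. Their mean r was 0.114, compared with -0.057 for differently numbered mice, whereas at day 25 these means were 0.260 and -0.131. The labels state no pairing, and whether the mice were paired at either day cannot be told from these values. The block over both days is given for completeness. With it 18 members were higher and 7 lower over both days (32.9%, compared with 46.3% of all tested genes), and at day 30 it left 1 higher and 1 lower. Among named members that did not pass, some fold changes near 0 changed sign. With median-ratio scaling those at day 25 were 0.036 for Mrps12, 0.043 for Mrps18c and 0.041 for Mrps33, and at day 30 they were 0.031 for Mrps18a and 0.0059 for Mrps5. With quantile normalization they were -0.0010 for Mrps18a and 0.068 for Mrps33 at day 25 and 0.0038 for Mrps5 at day 30. Leaving out single mice also changed signs. At day 25 the ranges were -0.041 to 0.24 for Mrpl12, -0.075 to 0.14 for Mrpl27, -0.012 to 0.16 for Mrpl30, -0.10 to 0.11 for Mrpl45, -0.042 to 0.16 for Mrpl58, -0.18 to 0.072 for Mrps12, -0.10 to 0.15 for Mrps18a, -0.063 to 0.068 for Mrps18c, -0.14 to 0.00071 for Mrps22, -0.13 to 0.093 for Mrps33 and -0.15 to 0.0040 for Mrps5. At day 30 they were -0.078 to 0.18 for Mrpl47, -0.047 to 0.15 for Mrps12, -0.12 to 0.033 for Mrps18a, -0.071 to 0.16 for Mrps33 and -0.15 to 0.021 for Mrps5.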
